A study of Rattus norvegicus with 9 samples.

Results

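The genes of voltage-gated calcium, voltage-gated sodium and potassium channels were followed in rat liver after total-body irradiation. They were taken as all genes whose symbol starts with Cacn, with Kcn, or with Scn and a digit, and the symbols were matched to the probes of the array through their RefSeq accessions. The rule found 117 genes with 136 probes, of 13438 genes with a matched probe and 41012 probes on the array. A further 20 channel genes of the reference had no matched probe and were not analysed here.

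Transcripts in the livers of male Wistar rats, taken 24 h after exposure, were hybridized to 9 Agilent arrays in a single colour, with 1 array per rat and 3 rats in each of 3 groups. Control rats received 0 Gy and no Hong Shan Capsule (HSC), a preparation of several herbs given by mouth. TBI rats received total-body irradiation of 6.5 Gy from a 60Co source at 2 Gy/min. HSC + TBI rats received HSC intragastrically on 3 days before the same exposure, at 30 mg/kg/day per the sample labels and at 10 g/kg/day per the series design. No group with HSC alone was analysed here, so the effect of HSC without radiation cannot be told apart from its effect on irradiated rats. The comparisons ask which channel genes differ after TBI, and whether they differ when HSC was given first.

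Voltage-gated channels are membrane proteins whose pore-forming subunit opens when the membrane voltage changes, and accessory subunits set how many pores reach the membrane and how they open. Inward rectifier (Kcnj) and two-pore (Kcnk) potassium channels conduct without such gating and help to hold the resting potential. Hepatocytes are not excitable in the way of nerve and muscle, and in the liver potassium channels are known for setting the driving force for bile acid and ion transport, for cell volume control and, in immune cells, for activation.

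Of the members, 4 had a probe called in the same direction against control in both irradiated groups: Kcnj16, Kcnj15, Cacnb3 and Kcna6. Both comparisons use the same controls, and the share of all tested probes called in both was not computed. Kcna6 was called on 1 of its 2 probes. The upstream sequences of these 4 genes are shown because their called probes moved in opposite directions, 2 higher and 2 lower. Each sequence is the 250 bases before the annotated start in RefSeq (GRCr8), 5′ to 3′, and all 4 genes were matched. Capitals mark matches on either strand to the TATA box motif TATAAA, the CAAT box motif CCAAT, the GC box motif GGGCGG, the E-box motif CACGTG or the half-site of the p53 consensus.
Kcnj16, chr10:96517074-96517323, plus strand: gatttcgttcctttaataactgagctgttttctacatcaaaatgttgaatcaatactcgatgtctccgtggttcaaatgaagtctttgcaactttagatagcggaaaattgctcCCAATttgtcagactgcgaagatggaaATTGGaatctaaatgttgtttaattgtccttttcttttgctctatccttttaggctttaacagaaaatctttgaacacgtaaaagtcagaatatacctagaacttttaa
Kcnj15, chr11:48070700-48070949, plus strand: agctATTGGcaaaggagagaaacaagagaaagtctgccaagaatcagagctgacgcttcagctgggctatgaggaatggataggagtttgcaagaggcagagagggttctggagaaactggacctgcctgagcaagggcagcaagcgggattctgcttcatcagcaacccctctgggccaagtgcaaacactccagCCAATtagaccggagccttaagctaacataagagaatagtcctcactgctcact
Cacnb3, chr7:131666301-131666550, plus strand: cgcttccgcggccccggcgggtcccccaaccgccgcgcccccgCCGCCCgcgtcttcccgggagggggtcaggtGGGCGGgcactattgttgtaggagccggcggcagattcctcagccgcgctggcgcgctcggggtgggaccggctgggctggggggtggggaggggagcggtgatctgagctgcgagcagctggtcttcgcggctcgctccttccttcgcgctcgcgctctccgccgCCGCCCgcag
Kcna6, chr4:161262353-161262602, minus strand: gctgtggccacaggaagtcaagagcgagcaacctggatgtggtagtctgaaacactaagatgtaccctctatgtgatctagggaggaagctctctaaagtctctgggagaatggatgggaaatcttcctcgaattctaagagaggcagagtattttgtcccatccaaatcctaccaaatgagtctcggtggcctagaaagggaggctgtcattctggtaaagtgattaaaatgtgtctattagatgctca
The Kcnj16 and Kcnj15 windows each held 2 matches to CCAAT, counting both strands. The Cacnb3 window held 3 matches to GGGCGG, and no motif searched was in the Kcna6 window. Over the 33469 RefSeq windows of the same length, 34% held CCAAT, 30.5% GGGCGG, 12.9% TATAAA, 5.59% CACGTG and 6.64% a p53 half-site. GC content was 33.6% for Kcnj16, 50.8% for Kcnj15, 76.4% for Cacnb3 and 45.6% for Kcna6, beside a median of 51.2% over all windows. A match is a description of the letters only.

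Few channel genes gave a clear signal in liver. A probe is called above background where the scanner software marked it so, and 20 of the 136 channel probes (14.7%, 20 genes) were above background on all 9 arrays, compared with 53% of all probes. No array reached that mark for 66 channel probes (48.5%, 61 genes), compared with 25.1% of all probes. A probe was tested where any of the groups had it above background in each of its 3 rats, which held for 48 channel probes of 44 genes (35.3%, against 61.9% of all probes). The other 22 probes were above background on 1 to 8 arrays, without filling any group.

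The detected share differed between the groups. Of the channel probes, 18.4%, 22.8% and 22.8% were above background in the 3 control rats. The 3 TBI rats had 36.8%, 37.5% and 43.4%, and the 3 HSC + TBI rats had 26.5%, 30.1% and 27.2%. The groups did not overlap, with means of 21.3% ± 2.55 (SD, n = 3), 39.2% ± 3.63 (SD, n = 3) and 27.9% ± 1.95 (SD, n = 3). The exact two-sided permutation test gave p = 0.1 for each pair of groups, the smallest value that 3 rats against 3 allow.

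The mark was not set at the same signal on every array. All values below are log2 signals after quantile normalization. In control rats the dimmest marked signal was 3.68 to 3.97, in TBI rats 2.51 to 3.13, and in HSC + TBI rats 3.56 to 3.66. Over all probes of the array, too, more were marked in TBI rats, at 63.6% to 69.5%, than in control rats (56.6% to 59.3%) and HSC + TBI rats (58.7% to 60.4%). With a limit of 3.97 for every array, set after seeing the data, 20.6% to 22.8% of the channel probes were at or above the limit in control rats, 25% to 28.7% in TBI rats and 25% to 27.9% in HSC + TBI rats. Over all probes of the array this share was 58.5% to 58.7% in every rat, which quantile normalization nearly fixes in advance. By this limit the means for the channel probes were 21.6% ± 1.12, 26.2% ± 2.12 and 26.5% ± 1.47 (SD, n = 3 each). Both irradiated groups lay above the controls without overlap (exact permutation p = 0.1 for each), and they overlapped each other (exact permutation p = 1).

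**Figure D1:**
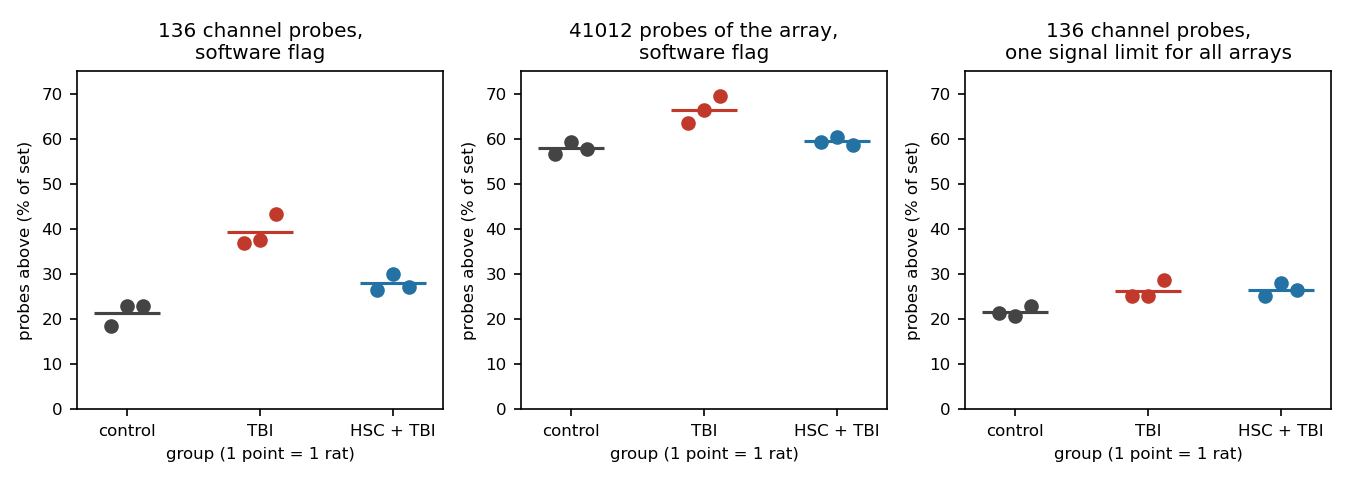
Share of probes above background (percent of the set) in each rat, with the group mean as a line, for the channel probes by the software flag, for all probes by the same flag, and for the channel probes by a common limit of 3.97 (log2). The flag separates the 3 groups, with means of 21.3%, 39.2% and 27.9% for the channel probes, while the common limit gives 21.6%, 26.2% and 26.5%.

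The slide also differed between the groups. Slide 1 held the controls, slide 2 the TBI rats, slide 3 HSC + TBI 1 and HSC + TBI 3, and slide 4 HSC + TBI 2, so slide and group cannot be told apart. The median log2 signal of the channel probes was 1.98 to 2.34 in control rats, 2.14 to 2.49 in TBI rats and 2.06 to 2.53 in HSC + TBI rats, with overlap among all 3 groups. Over all 136 probes, without any filter, the median log2 difference was 0.08 for TBI minus control, 0.08 for HSC + TBI minus control and 0.02 for HSC + TBI minus TBI. Over all probes of the array these medians were -0.03, 0.01 and 0.05. Shifting each array by its 75th percentile in place of quantiles turned the first and second channel medians to -0.17 and -0.12.

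Detection varied among the channel subfamilies. Two-pore potassium channels, which carry leak currents, were above background on all 9 arrays for 4 of 12 probes. Pore subunits of voltage-gated potassium channels reached this for 5 of 38 probes, inward rectifiers for 3 of 15, calcium channel beta subunits (Cacnb) for 2 of 5, and calcium channel pore subunits (Cacna1) for 1 of 12. None of the 12 probes for sodium channel pore subunits did. Of the calcium- and sodium-activated potassium channels, 11 of 14 probes were above background on no array, and 9 of 12 probes for accessory subunits of voltage-gated potassium channels were likewise dim.

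**Figure D2:**
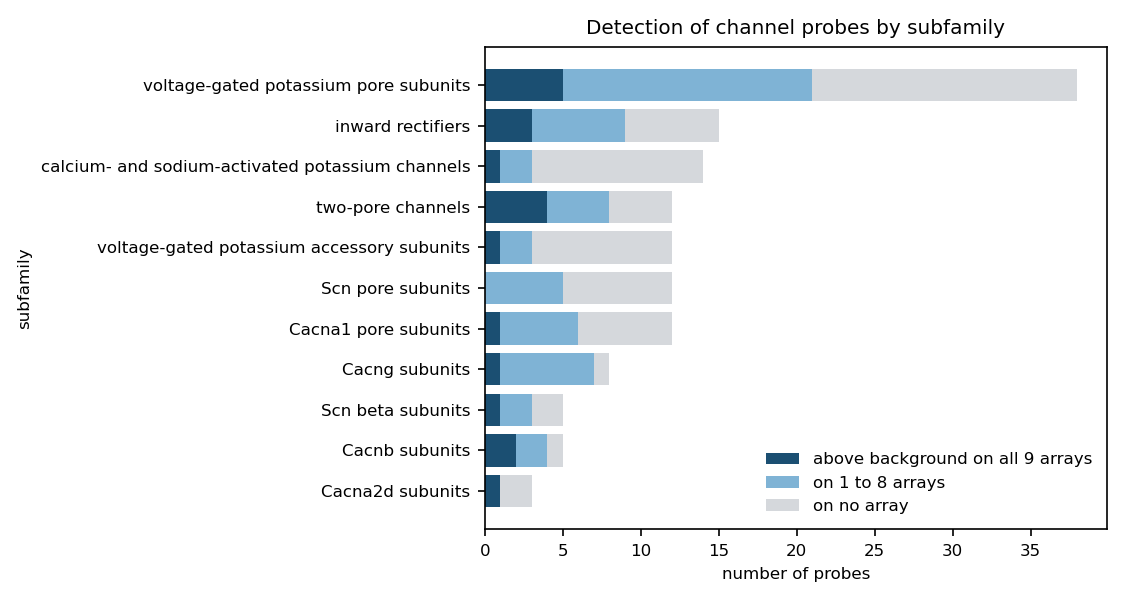
Number of channel probes in each subfamily (horizontal axis), divided into those above background on all 9 arrays, on 1 to 8 arrays and on no array. Sodium channel pore subunits (Scn) have no probe above background on all 9 arrays, and two-pore channels have 4 of 12.

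The 66 probes marked on no array had mean log2 signals of 1.19 to 3.22 over the 9 arrays, with a median of 1.55. They include genes known from heart, such as Kcnq1 and Kcnh2, which carry the delayed rectifier currents, and Cacna1c, the pore of the cardiac L-type calcium channel, for 1 of its 2 probes. Kcna3, the potassium channel of activated T cells, was among them, as were Kcnj10, a partner subunit of Kcnj16, and the neuronal sodium channel genes Scn1a, Scn3a and Scn8a. For these genes no difference between the groups could be measured.

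TBI changed the signal of 10 of the 48 tested channel probes, 8 higher and 2 lower, which is 20.8% of those tested. Over all 25367 tested probes the share called was 7.25% in either direction, 3.54% higher and 3.71% lower. Calls are limma's, and needed both an adjusted p (Benjamini-Hochberg) under 0.05 and a change of 1.5-fold or more. Among the higher probes were those for Kcnj16, Kcnk18, Kcna6, Kcnh4, Cacna1e, Cacna1s and Scn3b, and the lower ones were for Kcnj15 and Cacnb3. Probes that entered the test only through the TBI arrays are no sample of all members, so the split of directions over tested probes does not stand for all members. Of the 20 probes above background on every array, 1 was called, beside 6.08% of all such probes of the array.

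Among the inward rectifiers, Kcnj16 and Kcnj15 were called. Kcnj16 encodes Kir5.1, a subunit that forms channels with Kir4.1 and Kir4.2. Its log2 signal was 1.85, 2.37 and 2.59 in control rats, 4.79, 5.95 and 5.56 in TBI rats, and 4.22, 4.48 and 4.38 in HSC + TBI rats. The probe was not well above background in any control rat and was above it in all 6 irradiated rats, and the 3 groups did not overlap. The log2 difference between TBI and control was 3.16 ± 0.30 (SE, limma adjusted p = 0.00101). Since the control level was dim, the signal was at least 3-fold higher after TBI.

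Kcnj15 encodes Kir4.2, one of the partners of Kir5.1, and moved the other way. Its log2 signal was 4.91, 4.15 and 4.25 in control rats, 1.28, 1.29 and 1.90 in TBI rats, and 3.24, 1.27 and 1.28 in HSC + TBI rats. It was above background in the 3 control rats and in no irradiated rat, and the controls overlapped with neither irradiated group. The log2 difference was -2.95 ± 0.51 (SE, limma adjusted p = 0.0122), and the signal was at least 3.07-fold lower after TBI. Of all 41012 probes, 50 (0.122%) shared this detection pattern of all control and no TBI arrays.

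Among the two-pore channels, Kcnk18, which encodes the calcineurin-regulated channel TRESK of sensory neurons, was 1.52, 1.48 and 1.47 in control rats and 3.46, 3.25 and 2.89 in TBI rats. HSC + TBI rats gave 1.99, 1.42 and 1.44. Only the TBI arrays marked it above background, and TBI rats lay above all others. The log2 difference of 1.71 ± 0.19 (SE, limma adjusted p = 0.00236) carries no lower bound on the fold, because the TBI signals lay under the lowest signal marked above background on the control arrays. With the common limit of 3.97 the probe was no longer tested.

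Voltage-gated potassium channels were called for Kcna6, a Shaker-related pore, and Kcnh4, a pore of the ether-a-go-go family. The called Kcna6 probe was 3.01, 3.06 and 3.1 in control rats, 4.20, 4.05 and 4.94 in TBI rats, and 3.82, 4.49 and 4.40 in HSC + TBI rats. It was dim in every control rat, and neither irradiated group overlapped with the controls. The TBI difference was 1.34 ± 0.25 (SE, limma adjusted p = 0.0168), at least 1.46-fold higher. Kcnh4 was 4.18, 4.88 and 4.86 in control rats, 5.55, 5.53 and 5.54 in TBI rats, and 4.43, 4.94 and 4.55 in HSC + TBI rats. TBI rats lay above both other groups, with a difference from control of 0.90 ± 0.21 (SE, limma adjusted p = 0.0361).

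Calcium channel genes were called for pore and beta subunits. Cacna1s and Cacna1e were chosen by the study on these rats, so their direction is not independent evidence. Cacna1s, the voltage sensor of skeletal muscle, was 3.38, 2.83 and 2.39 in control rats, 4.91, 4.46 and 4.49 in TBI rats, and 3.11, 2.03 and 3.44 in HSC + TBI rats. Only the TBI arrays were above background, and the TBI rats lay above the other 6. The difference was 1.76 ± 0.38 (SE, limma adjusted p = 0.0268), at least 1.71-fold higher than control.

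Skeletal muscle markers are given beside the Cacna1s signal. None of 6 such probes (Myh1, Myh2, Myh4, Ckm, Acta1 and Myog) was tested, 5 of them were above background on no array, and their summed signal on the linear scale was 33.5 to 43.6 in control rats, 27 to 37.6 in TBI rats and 26.5 to 50.2 in HSC + TBI rats. Myog, a muscle transcription factor, was above background on 0 control, 2 TBI and 1 HSC + TBI arrays, with mean log2 signals of 2.23, 3.65 and 2.86 in that order. The part of these markers in the Cacna1s result was not tested.

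Cacna1e, the pore of R-type calcium channels, had 4 probes. Probe 3 was 4.30, 3.93 and 4.42 in control rats, 5.42, 5.22 and 5.29 in TBI rats, and 4.40, 3.92 and 4.69 in HSC + TBI rats. The TBI rats lay above the other 6, with a difference from control of 1.09 ± 0.21 (SE, limma adjusted p = 0.0179). Cacnb3, an accessory subunit that brings calcium channel pores to the membrane, was the single called channel probe above background on all 9 arrays. Its log2 signal was 7.36, 7.15 and 7.58 in control rats, 6.75, 6.54 and 6.82 in TBI rats, and 6.79, 6.69 and 6.57 in HSC + TBI rats. All 6 irradiated rats lay below the 3 controls, and the TBI difference was -0.66 ± 0.14 (SE, limma adjusted p = 0.0283), or 0.633 of the control level.

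Among the sodium channel genes, Scn3b, a beta subunit, was 1.31, 2.65 and 1.31 in control rats, 4.04, 3.73 and 4.49 in TBI rats, and 3.52, 2.33 and 3.77 in HSC + TBI rats. It was above background on the TBI arrays alone, and TBI rats did not overlap with controls. The difference was 2.33 ± 0.46 (SE, limma adjusted p = 0.0205), at least 1.18-fold higher.

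**Figure D3:**
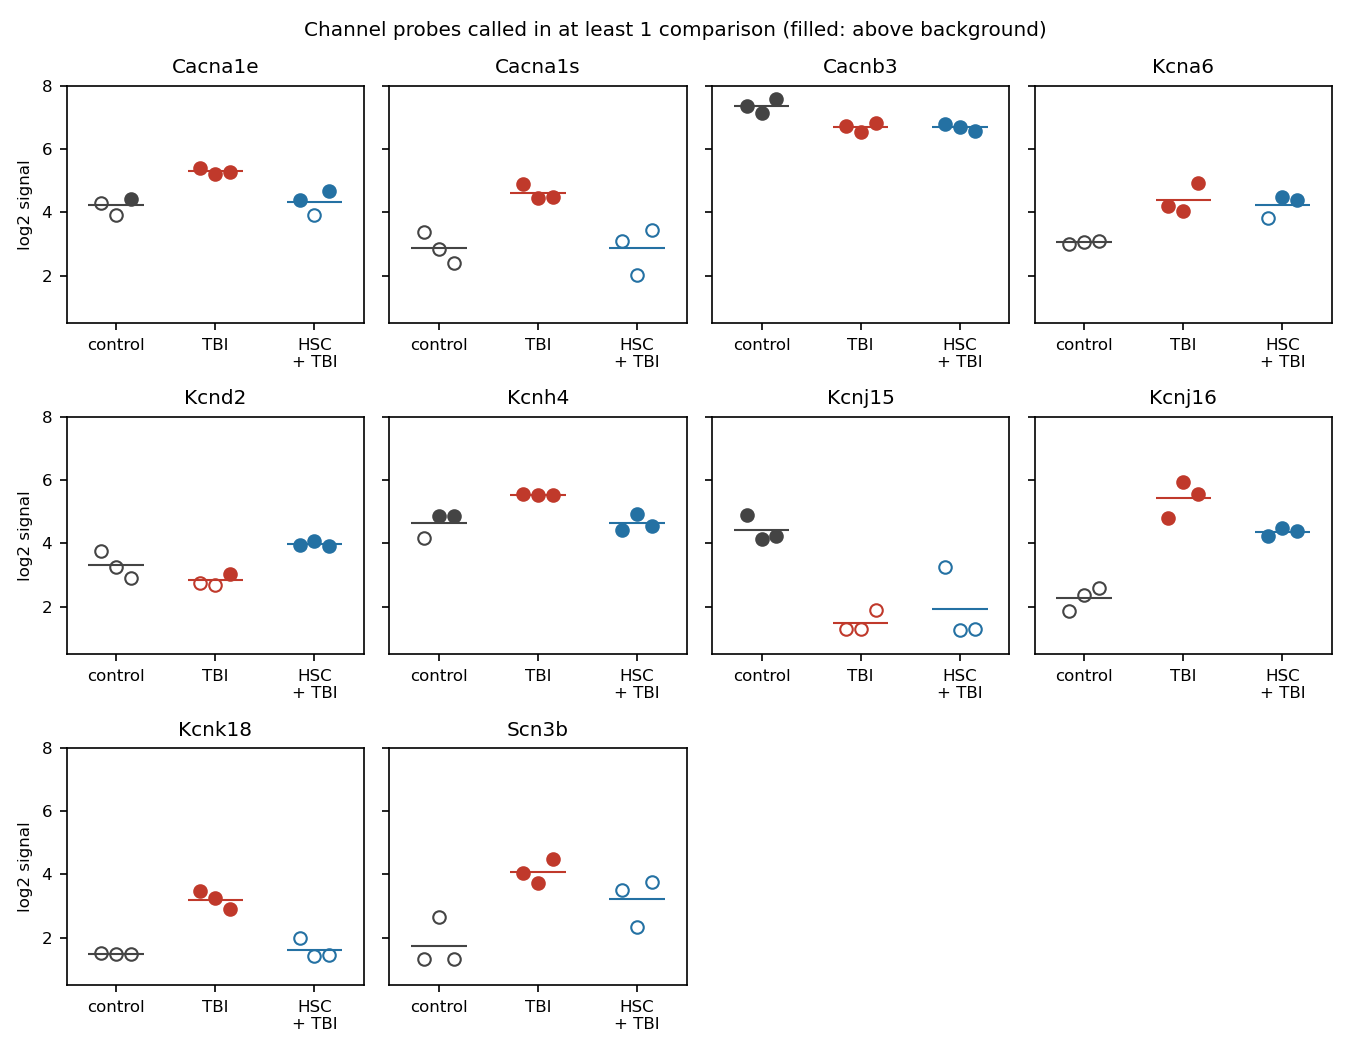
Log2 signal of each rat for 10 channel probes called in at least 1 comparison, with group means as lines, filled points above background and open points not. Kcnj16 was above background in all 6 irradiated rats and no control rat, Kcnj15 in the 3 control rats alone, and Cacnb3 in all 9 rats.

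The calls for Kcnj16, Kcnj15 and Kcnk18 held with each rat left out in turn, and their log2 differences then lay between 2.90 and 3.48, between -3.15 and -2.71, and between 1.58 and 1.86. The number of channel probes called was 5 without control 1, 6 without control 2, 4 without control 3 and 6 without TBI 2, and 4 to 12 over all 9 rats left out. The other 7 calls were lost without single rats. Scn3b was lost without control 1 or control 3 (log2 difference of 2.11 to 2.78 over all 9 rats left out), Kcna6 probe 1 without any 1 control (1.07 to 1.51) and Cacna1e probe 3 without control 2 (0.95 to 1.20). The Cacna1s call needed control 2, control 3, TBI 1 and TBI 2 (1.52 to 2.01), and that of Cacnb3 control 1, control 3, TBI 1 and TBI 2 (-0.77 to -0.55). Kcnh4 needed every rat but HSC + TBI 2 (0.67 to 1.02). With normexp background correction, or with the methods' t-test after adjustment, 0 channel probes were called. The methods' t-test without adjustment called 9. By limma, 21 of the 48 had an unadjusted p under 0.05 (43.8%, beside 25.5% of all tested probes). Of the 48, 28 were not above background on all 9 arrays, beside 3631 of all 25367 tested. These shares therefore compare unlike probes, some of which entered only through the TBI arrays.

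Detection patterns were compared as well. The probes above background on all TBI arrays and no control array were 14 (10.3% of the channel probes, 2.97% of all probes), among them Cacna1g, Cacna1s, Kcna6, Kcne1, Kcnh5, Kcnh7, Kcnj16, Kcnj4, Kcnk18, Kcnk3, Kcns3, Scn10a and Scn3b. Called among them were Cacna1s, Kcna6 probe 1, Kcnj16, Kcnk18 and Scn3b. The share called among all probes of the array with this pattern was not computed. The groups did not overlap in 16 of the 48 tested channel probes (33.3%), beside 28.8% of all tested probes. Kcnk3, a two-pore leak channel, shows how the mark and the signal can part. Its log2 signal was 3.41, 3.61 and 3.94 in control rats and 3.86, 3.56 and 3.72 in TBI rats, so the groups overlapped although only the TBI arrays were marked.

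Probes for the same gene differed in several cases, and probe levels are not compared with each other. Of the 16 genes with several probes, Cacna1e and Kcna6, among others, had 1 called probe and at least 1 other that was not. Cacna1e probe 4, above background on all 9 arrays, was 5.28, 5.34 and 5.25 in control rats, 6.06, 5.90 and 4.65 in TBI rats, and 6.0, 5.05 and 5.51 in HSC + TBI rats. Its TBI difference was 0.25 ± 0.37 (SE, limma adjusted p = 0.714), and the groups overlapped. No array marked Cacna1e probe 1 or probe 2.

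Kcna6 probe 2 was 4.32, 4.11 and 4.05 in control rats, 4.22, 3.31 and 5.15 in TBI rats, and 3.64, 4.67 and 3.38 in HSC + TBI rats. The groups overlapped, and its TBI difference was 0.07 ± 0.46 (SE, limma adjusted p = 0.945). Which transcripts each probe reads was not tested.

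**Figure D4:**
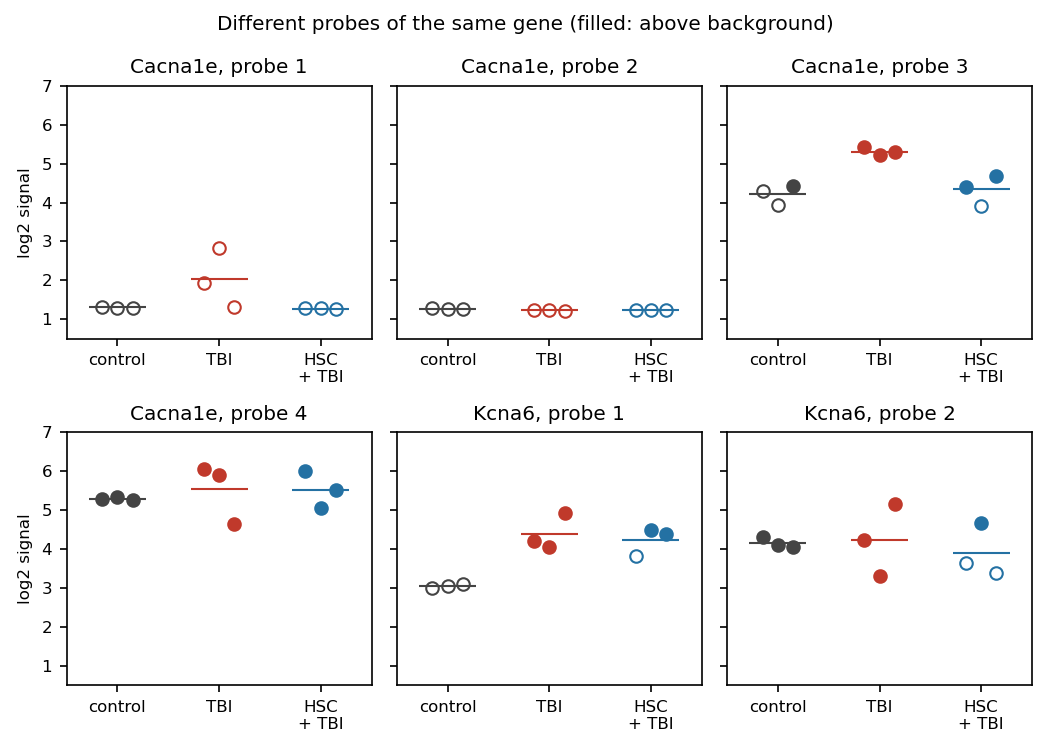
Log2 signal of each rat for all probes of Cacna1e and Kcna6, with group means as lines and filled points above background. Cacna1e probe 3 and Kcna6 probe 1 were called for TBI against control, and the other probes of these genes were not.

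HSC + TBI rats differed from controls in 4 of the 48 tested channel probes (8.33%, beside 3.23% of all tested probes, 1.19% higher and 2.05% lower). Kcnj16 and Kcna6 were higher, and Kcnj15 and Cacnb3 lower. All 4 were also called for TBI, a comparison that shares the control rats. Kcnj16 and the called Kcna6 probe entered the test only through irradiated groups, and Kcnj15 only through the controls. The shares therefore compare unlike probes. Of the 20 probes above background on every array 1 was called, Cacnb3, beside 2.86% of all such probes, and 17 of the 48 did not overlap between the groups (35.4%, beside 31.7% of all tested probes). Above background in every HSC + TBI rat and no control rat were 6 probes, for Cacna1g, Cacng2, Kcnd2, Kcnj16, Kcnmb3 and Kcns3 (4.41% of the channel probes, 0.485% of all probes). The opposite pattern was found for Kcnj15 alone (0.735%, beside 0.305% of all probes). The log2 difference for Kcnj16 was 2.09 ± 0.30 (SE, limma adjusted p = 0.00824), at least 1.42-fold higher, and the call held with each rat left out (1.88 to 2.25). Kcnj15 was lower by -2.51 ± 0.51 on the log2 scale (SE, limma adjusted p = 0.0355), at least 1.76-fold, with HSC + TBI 1 at 3.24 between the controls and the other 2 rats.

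Kcna6 probe 1 was higher by 1.18 ± 0.25 (SE, limma adjusted p = 0.0427). This value carries no lower bound on the fold, because HSC + TBI 1 was not above background. Cacnb3 differed by -0.68 ± 0.14 (SE, limma adjusted p = 0.0419), to 0.626 of the control level. These 3 calls were lost without some single rats: Kcnj15 without any 1 control, TBI 2, HSC + TBI 2 or HSC + TBI 3 (-3.16 to -2.18 over all 9 rats left out), Kcna6 without any 1 control or any 1 HSC + TBI rat (1.06 to 1.39), and Cacnb3 without any rat but TBI 3 (-0.78 to -0.57). The count was 1 to 4 over these settings, and 0 with normexp or with the methods' t-test after adjustment. By limma, 12 of the 48 (25%, beside 19.6% of all tested probes) had an unadjusted p under 0.05, and the methods' t-test called 5 without adjustment. These shares, too, compare unlike probes.

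For probes called after TBI and not after HSC + TBI, the values of the latter are given here without a count, because both comparisons use the same controls. The difference of HSC + TBI from control was 0.12 ± 0.21 for Cacna1e probe 3 and 0.00 ± 0.21 for Kcnh4 (SE, log2). Cacna1s and Kcnk18 were above background on no control and no HSC + TBI array, so neither group had a measured level of them to compare. Scn3b was likewise above background on no control and no HSC + TBI array, so its 1.45 ± 0.46 (limma adjusted p = 0.133) compares unmeasured levels. Whether HSC + TBI and TBI rats differed was read from the direct comparison.

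Directly compared, HSC + TBI and TBI rats differed in 2 of the 48 tested channel probes (4.17%, beside 0.796% of all tested probes, 0.233% higher and 0.564% lower). Of these, Kcnk18 entered the test only through the TBI arrays and Kcnd2 only through the HSC + TBI arrays. The shares therefore compare unlike probes. Without the filter on dim probes, Kcnk18 alone was called. Kcnk18 was lower in HSC + TBI rats by -1.58 ± 0.19 on the log2 scale (SE, limma adjusted p = 0.0152). This value carries no lower bound on the fold, since no HSC + TBI array marked the probe and the TBI signals, 2.89 to 3.46, lay under the dimmest marked signals of the HSC + TBI arrays (3.56 to 3.66). Kcnd2, the pore of fast A-type potassium currents, was higher by 1.16 ± 0.21 (SE, limma adjusted p = 0.0495). Kcnd2 was 3.76, 3.26 and 2.92 in control rats, 2.76, 2.69 and 3.04 in TBI rats, and 3.95, 4.08 and 3.93 in HSC + TBI rats. Its HSC + TBI values lay above all others, while control and TBI rats overlapped. None of the 20 probes above background on every array was called, beside 0.446% of all such probes, with limma's adjusted p at 0.178 for Kcnk13 and 0.168 for Kcng2. Above background in every TBI rat and no HSC + TBI rat were 9 probes (6.62%, beside 1.78% of all probes), among them Cacna1s, Kcne1, Kcnh5, Kcnh7, Kcnj4, Kcnk18, Kcnk3 and Scn3b, and the opposite was found for 0 channel probes (beside 0.00975% of all probes). The TBI arrays marked dimmer signals, down to 2.51 to 3.13. Of the genes named for this pattern, only Cacna1s and Kcnk18 did not overlap in signal between these groups. By the common limit, the mean shares were 26.2% in TBI and 26.5% in HSC + TBI rats.

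Cacna1s differed directly by -1.76 ± 0.38 (SE, limma adjusted p = 0.083), Cacna1e probe 3 by -0.97 ± 0.21 (adjusted p = 0.0844), Kcnh4 by -0.90 ± 0.21 (adjusted p = 0.101) and Kcnj16 by -1.07 ± 0.30 (adjusted p = 0.14). In each of these 4 probes all HSC + TBI rats lay below all TBI rats, but none passed the threshold. Such a lack of overlap was found for 13 of the 48 channel probes (27.1%) and for 21.4% of all tested probes. The Kcnk18 call was lost without TBI 2 or HSC + TBI 3 (-1.77 to -1.45 over the 9 rats left out). Kcnd2 was lost without control 2, TBI 2 or any 1 HSC + TBI rat (1.09 to 1.26).

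The number called in the direct comparison was 6 without TBI 1, 5 without TBI 3, and 0 without TBI 2 or without HSC + TBI 3. It was 0 with the common limit, with normexp, or with the methods' t-test after adjustment. By limma, 12 of the 48 (25%, beside 16.3% of all tested probes) had an unadjusted p under 0.05, and the methods' t-test called 6 without adjustment. These shares again compare unlike probes.

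The 20 probes above background on every array are the channel genes with a measured level in all 9 rats. Kcnk5, a two-pore channel sensitive to alkaline pH, was 10.04, 10.16 and 10.7 in control rats, 10.35, 10.62 and 11.09 in TBI rats, and 10.31, 10.30 and 9.80 in HSC + TBI rats. Both irradiated groups overlapped with the controls, and all HSC + TBI rats lay below all TBI rats, with a direct difference of -0.55 ± 0.25 (SE, limma adjusted p = 0.324). Kcnj8, the pore of vascular ATP-sensitive potassium channels, was 9.97, 9.90 and 9.87 in control rats, 10.20, 10.18 and 10.31 in TBI rats, and 9.87, 9.92 and 10.16 in HSC + TBI rats. TBI rats lay above the 6 others, by 0.32 ± 0.11 from control (SE, limma adjusted p = 0.127).

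Kcnk6, a two-pore channel found in many tissues, was 8.60, 9.13 and 8.99 in control rats, 8.51, 8.79 and 8.80 in TBI rats, and 8.39, 8.30 and 8.36 in HSC + TBI rats. HSC + TBI rats lay below the 6 others, by -0.56 ± 0.16 from control (SE, limma adjusted p = 0.0963). These values are of probe 1. Kcnk6 probe 2, above background on 2 control, 2 TBI and 0 HSC + TBI arrays, was not tested.

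Kcnh1, an ether-a-go-go potassium channel pore, was 7.53, 7.62 and 7.53 in control rats, 6.79, 6.48 and 5.61 in TBI rats, and 8.0, 6.06 and 7.83 in HSC + TBI rats. TBI rats lay below the controls by -1.26 ± 0.50 (SE, limma adjusted p = 0.157), and HSC + TBI 2 lay among the TBI rats. Cacng3, a relative of calcium channel gamma subunits that accompanies glutamate receptors, differed by 0.47 ± 0.20 for HSC + TBI minus control (SE, limma adjusted p = 0.254). For TBI minus control, Cacnb2 probe 1 and Kcnab2, accessory subunits of calcium and potassium channels, gave -0.66 ± 0.35 and -0.35 ± 0.24 (SE, log2). Neither was called (limma adjusted p = 0.275 and 0.4). Cacna2d1, which carries the gabapentin binding site, gave 0.09 ± 0.18 in the same comparison. Cacnb2 probe 2 was above background in TBI 1 alone, with a higher mean in TBI than in control rats, and was not tested.

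**Figure D5:**
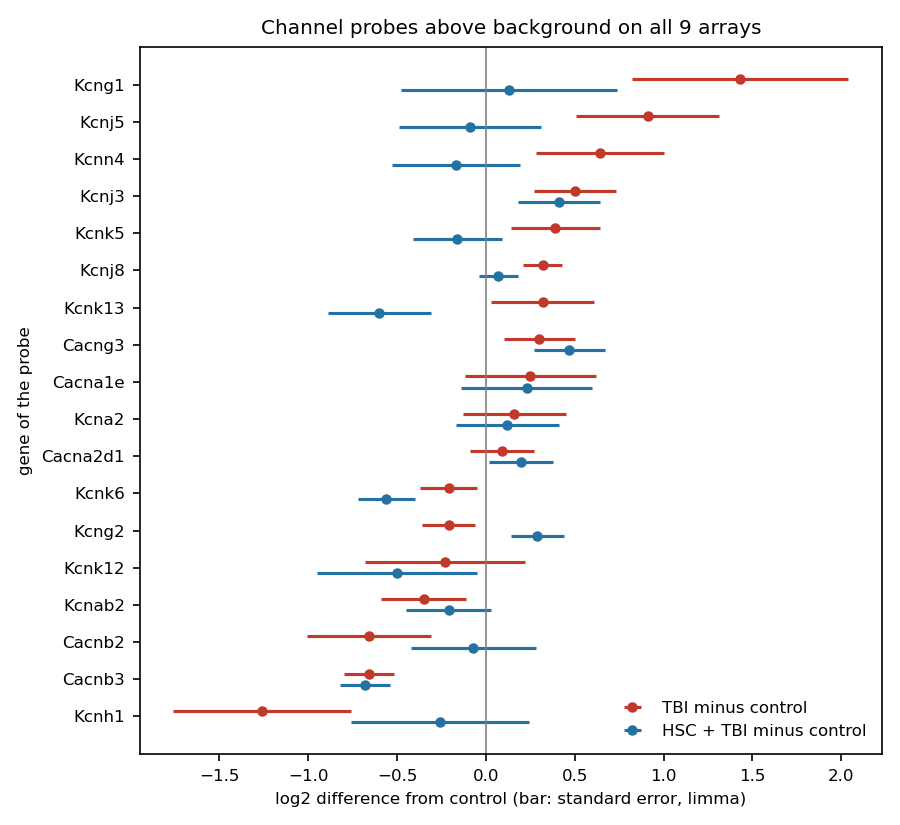
Log2 difference from control (horizontal axis, with the standard error from limma as bars) for TBI and HSC + TBI rats, for channel probes above background on all 9 arrays. Cacnb3 was lower in both groups, at -0.66 and -0.68, and was the single one called.

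Some channel probes varied widely among the TBI rats. Kcnn4, the calcium-activated potassium channel of immune and epithelial cells, was 6.92, 6.94 and 6.97 in control rats, 6.60, 8.30 and 7.85 in TBI rats, and 6.71, 6.79 and 6.81 in HSC + TBI rats. Kcnk13, a two-pore channel known from microglia and macrophages, was 7.97, 8.61 and 8.31 in control rats, 7.93, 9.10 and 8.82 in TBI rats, and 7.68, 7.67 and 7.75 in HSC + TBI rats. Both were highest in TBI 2 and TBI 3 and lowest within their group in TBI 1, and Kcnk13 was lower in every HSC + TBI rat than in any other rat. The direct difference of HSC + TBI minus TBI was -0.81 ± 0.36 for Kcnn4 (SE, limma adjusted p = 0.313) and -0.92 ± 0.29 for Kcnk13 (adjusted p = 0.178).

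The summed macrophage markers were also highest in TBI 2 and lowest in the HSC + TBI rats. All 7 probes of the list (Cd68, Cd163, Clec4f, Marco, Csf1r and Adgre1) were above background on every array, with a summed linear signal of 46500, 66900 and 54800 in control rats, 46000, 87300 and 64000 in TBI rats, and 32300, 33800 and 35200 in HSC + TBI rats. Clec4f was the brightest probe of this sum, with mean log2 signals of 15.47, 15.58 and 14.72 in the same group order. No probe of the list was called in any comparison. For HSC + TBI minus TBI the median log2 difference over the list was -1.10, and the Cd163 probes gave -0.14 ± 0.24 and -0.23 ± 0.24 (SE). The part of macrophages in the Kcnn4 and Kcnk13 values was not tested. In bulk liver, fewer cells of a type and less RNA per cell cannot be told apart.

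Kcng1, a silent modifier of voltage-gated potassium channels, was named after its values were seen. It was 6.20, 6.58 and 5.84 in control rats, 8.55, 8.41 and 5.96 in TBI rats, and 6.55, 6.28 and 6.18 in HSC + TBI rats. TBI 1 and TBI 2 lay above all other rats and TBI 3 among the controls, so the difference of 1.43 ± 0.61 did not pass (SE, limma adjusted p = 0.183). Cacna1g, a T-type calcium channel pore likewise named after its values were seen, was 3.88, 3.42 and 4.15 in control rats and 5.97, 5.45 and 3.33 in TBI rats, again with TBI 3 apart.

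Other genes of ion transport were counted from lists. For calcium stores and entry, 34 of 41 probes were tested, and TBI raised 3 and lowered 1, with a median log2 difference of 0.03 over those tested, while HSC + TBI raised 2 and lowered 1 (median 0.02). These calls are 11.8% and 8.82% of the tested probes, beside 7.25% and 3.23% of all probes tested on the array, and Atp2b2 gave 2 of those raised in each comparison. Atp2b2, a plasma membrane calcium pump, was higher on both of its probes, by 1.66 ± 0.16 and 1.15 ± 0.17 after TBI (SE, limma adjusted p = 0.00115 and 0.0074) and by 1.44 ± 0.16 and 1.13 ± 0.17 after HSC + TBI (adjusted p = 0.00277 and 0.0124). Slc8a1, a sodium-calcium exchanger, rose on 1 of its 2 probes after TBI (0.87 ± 0.14, adjusted p = 0.01) and was lower in HSC + TBI than in TBI rats (-1.03 ± 0.14, adjusted p = 0.027). Itpr3, a calcium release channel, was lower after TBI on 1 of its 2 probes (-0.78 ± 0.18, adjusted p = 0.0378), and the other was not tested. Atp2a3, a pump of the endoplasmic reticulum, was lower on 1 of its 2 probes after HSC + TBI (-0.91 ± 0.12, adjusted p = 0.00618).

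For sodium and potassium transport, 12 of 18 probes were tested. Atp1b1, a subunit of the sodium pump, was the single one called, by 1.30 ± 0.30 after TBI (SE, limma adjusted p = 0.0356). This is 8.33% of those tested, beside 7.25% of all probes tested on the array. Of other channels, 11 of 18 probes were tested. The share called was 18.2% for TBI against control (beside 7.25%) and 9.09% for HSC + TBI against TBI (beside 0.796%). Trpv1, the capsaicin receptor, was dim in control and HSC + TBI rats and higher after TBI (1.40 ± 0.19, adjusted p = 0.00526), and it was lower in HSC + TBI than in TBI rats (-1.25 ± 0.19, adjusted p = 0.0381). Trpv1 was above background on all TBI arrays and on no other, so the bounds are at least 1.11-fold higher than control and, in HSC + TBI rats, at least 1.30-fold lower than TBI. Abcc8, a sulfonylurea receptor and regulatory subunit of ATP-sensitive potassium channels, was lower after TBI (-1.25 ± 0.32, adjusted p = 0.0476). HSC + TBI against control gave no call in these last 2 lists, where limma's adjusted p was 0.297 for Abcc8, 0.522 for Atp1b1 and 0.72 for Trpv1.

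Hepatocyte markers, the check of the tissue label, were above background on all 9 arrays for 8 of 8 probes, with a summed linear signal of 1130000 to 1180000 in control, 1040000 to 1180000 in TBI and 1140000 to 1210000 in HSC + TBI rats. Of 5 tested probes for lymphocyte markers, 3 were lower after TBI (60%, beside 3.71% of all tested probes). Lck differed by 0.55 ± 0.27 (limma adjusted p = 0.24). The sums over the list were 602 to 747, 219 to 419 and 275 to 387 in the 3 groups in that order. Cd2 was higher in HSC + TBI than in TBI rats (2.47 ± 0.37, limma adjusted p = 0.0306). It was above background on no TBI and 1 HSC + TBI array, so it carries no lower bound on the fold. The other tested probes of the list were not called in this comparison. Cd3g gave -0.82 ± 0.31, Cd79b -0.34 ± 0.35, Lck -0.14 ± 0.27 and Cd3d 0.03 ± 0.30 (SE, log2). Against control, Cd3g and Cd79b were lower in HSC + TBI rats too (-4.43 ± 0.31 and -3.26 ± 0.35, limma adjusted p = 0.000297 and 0.0026). Markers of nerve, the tissue best known for many of the called channels, were above background on no array for 4 of 6 probes. Their sums were 45.2 to 49.1, 64.2 to 86.4 and 42.5 to 49, and the one tested probe, for the neuronal tubulin Tubb3, was higher after TBI (1.19 ± 0.16, SE, limma adjusted p = 0.00486). Tubb3 was the brightest probe of these sums, with mean log2 signals of 4.49, 5.68 and 4.75 in the same group order. In TBI rats, Snap25 and Nefl had higher means than in controls, and Stmn2 and both Syt1 probes lower ones. Tubb3 was above background on all 9 arrays, was lower in HSC + TBI than in TBI rats (-0.93 ± 0.16, limma adjusted p = 0.0482), and differed from control by 0.26 ± 0.16 in HSC + TBI rats (adjusted p = 0.417). Its part in the channel results was not tested.

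The other marker sums, in the order control, TBI and HSC + TBI, were 13000 to 16000, 17200 to 21100 and 15900 to 17800 for endothelial cells and 2740 to 3180, 2080 to 2320 and 2290 to 2480 for stellate and smooth muscle cells. Neutrophil markers summed to 369 to 614, 380 to 775 and 233 to 303, cholangiocyte markers to 469 to 559, 371 to 706 and 441 to 507, and erythroid markers to 1810 to 4490, 1200 to 2520 and 945 to 1540. The part of any of these cells in the channel values was not tested.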

How the data were processed

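RNA from 9 rat livers was read on 1-colour arrays. Per the file headers, the authors measured spot intensity with Agilent Feature Extraction 10.7.3.1 and flagged spots well above background. They normalized by quantiles and deposited log2 values, used here as an alternative.

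Processed signals of at least 1 (lower ones set to 1) were put on the log2 scale, without outlier spots, quantile normalized over 9 arrays and averaged per probe with limma 3.58.1 in R 4.3.3. They differed from the authors' log2 values by a median of 0.03. A probe was above background where more than 0.5 of its spots were flagged, and the 25367 probes that some group had above background in each of its 3 rats were tested. Limma fitted the 3 group means, with Benjamini-Hochberg adjustment over all tested probes, and was checked on simulated data. P-values measure the spread between rats within the groups and do not cover slide differences between the groups. The number of arrays limits the precision.

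An "at least N-fold" value is taken against each dim array's floor, the dimmest signal marked there, or the probe's own signal where higher. Symbols came from RefSeq (GRCr8). Probes of a gene are numbered by probe name. Results for some single genes are not reported here, though their probes stay in the counts. The methods' t-test used log2 values with unequal variances and the ratio of linear means.

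The members and lists were chosen with earlier results of these data known. Named genes were those called, up to 5 per comparison with the largest change above background and without overlap, Cacna1s and Cacna1e, detected members of a liver channel list, and other probes of these genes. Alternatives were a 75th percentile shift, normexp (offset 50), the authors' values, other filters, outlier spots kept, the compared groups alone, the methods' t-test, no minimum fold, blocks for replicate number and slide, each rat left out and, added after seeing the data, the common limit. Replicate numbers did not pair the rats (same-number correlations -0.14 to 0.19, 2 of 9 above 0.1).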

Additional observations from a re-analysis of the deposited data

Results flagged for a closer look

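Kcnk18 and Kcnd2 differed between the 2 irradiated groups by limma's direct test. Kcnk18 differed by -1.58 (HSC + TBI minus TBI, log2, adjusted p = 0.0152), where all 3 TBI rats were above background and no other rat was. Kcnd2 differed by 1.16 (adjusted p = 0.0495), where all 3 HSC + TBI rats were above background and 1 of 3 TBI rats was. Against control, limma called neither the TBI difference of Kcnd2 (-0.48, adjusted p = 0.186) nor the HSC + TBI difference (0.67, adjusted p = 0.12). Each probe entered the test only through the group where it was higher. Both probes lay near or under the signals at which the software marks a probe, and the slide of the arrays cannot be told apart from the group.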

How the results depend on the processing

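Counts are given in the order TBI against control, HSC + TBI against control, HSC + TBI against TBI, where the counts of channel probes called were 10, 4 and 2 and those of all tested probes 1839, 820 and 202. With normexp the channel counts were 0, 0 and 0 and the counts over all tested probes 665, 490 and 6. The methods' t-test after adjustment gave 0, 0 and 0, and 7, 2 and 0. Without adjustment it called 9, 5 and 6 channel probes and 2122, 1693 and 932 of all. The slide as a random block (correlation -0.327) gave 23, 9 and 11, and 4527, 2573 and 2256. All controls lay on slide 1 and all TBI rats on slide 2, so this block cannot separate slide from group. Its higher counts allow no conclusion. Only probes above background on all 9 arrays gave 1, 1 and 0 channel probes and, in the last comparison, 40 of all. Without the filter the last 2 channel counts were 2 and 1, and 109 of all were called for HSC + TBI against TBI. Fitting only the compared groups gave 1174 of all for TBI against control, and 0 channel probes and 49 of all for HSC + TBI against TBI. In that comparison the channel count was 1 with the authors' values, 1 with outlier spots kept and 0 with the common limit.

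With the replicate block, HSC + TBI against TBI had 1 channel probe and 97 of all, and the other counts stayed within 1.5 times. The numbers do not pair the rats, since 0 of 9 correlated best with their own number.

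With single rats left out, the channel counts ranged from 4 to 12, 1 to 4 and 0 to 6, and the counts over all tested probes from 888 to 2392, 317 to 1028 and 28 to 948.

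The median difference of the channel probes was 0.08, 0.08 and 0.02. It was -0.17, -0.12 and 0.08 with the 75th percentile shift, 0.03, 0.01 and -0.02 with normexp, 0.48, 0.18 and -0.20 over the tested probes, 0.20, -0.08 and -0.06 over those above background on all 9 arrays, and 0.34, 0.12 and -0.15 over those at the common limit. With single rats left out it was 0.06 to 0.11, -0.01 to 0.11 and 0.00 to 0.04. The detected share in TBI rats was 39.2% by the flag and 26.2% by the common limit. Of 1542 values of named probes under other settings, 106 lost a call, 26 gained one, 0 called values changed sign and 49 values without a call did. Some of the gained calls came from the slide block. Signal over background limits most channel genes, and the cause of these shifts was not tested.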
